A study of Oryza sativa with 2 samples.

Results

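The CCCH zinc-finger proteins of rice were followed in whole seedlings after exposure to a carbon ion beam, a kind of radiation that ionizes densely along its track. Members were the probes with 1 gene whose symbol or synonym is a C3H number of the family, with or without the prefix Os. The rule found 55 probes for 46 genes among the 22574 probes measured on both arrays. Probes with 1 gene stood for 15798 genes in all. The gene table lists 53 genes of the family, of which 7 had no listed probe and were not analysed here. The rule used names only. Which spot carries a name rests on a numbering recovered from earlier results of these data, as described below.

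The rice (Oryza sativa) seedlings were 7 days old and had grown on MS medium, which is widely used for plant culture. Treated seedlings were irradiated whole for 2 h 35 min, and untreated healthy seedlings were the control. Neither a variety nor a radiation dose is given in the sources used here. Each of 2 two-channel arrays set the irradiated extract against the control extract, with the dyes swapped between them. They are called here by the dye of the irradiated RNA, the Cy5 array and the Cy3 array. Both arrays carry the same replicate number, so they were counted as 1 replicate per group. They show dye and array error, but not the spread between plants, and no difference below has a replicate check or a test.

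CCCH proteins hold short zinc-binding loops built on cysteine and histidine residues, and many of them bind RNA. In animals the best known members bind AU-rich stretches of messenger RNAs and bring in enzymes that shorten the poly(A) tail, so that the message decays. Other members work in splicing, in messenger RNA maturation or as ubiquitin ligases, and in plants several are linked to stress responses, hormone signalling, senescence and flowering. In RNA of whole seedlings, a change in the share of a tissue and a change of RNA within its cells cannot be told apart.

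Ratios are given on the log2 scale as irradiated over control, after each array was normalized on its own intensity trend, and intensities are in the scanner's arbitrary units. The direction is likely, not certain, because no source says which dye is the numerator of the deposited ratios. Cy5 over Cy3 was used, and under Cy3 over Cy5 every sign below would turn. Reading both columns as the same dye ratio is itself a choice taken over from earlier results. Under it the arrays correlated at r = -0.24 across all probes and at 0.47 across those of the brightest 2 deciles. The correlation was negative in every intensity decile from 1, the dimmest, at -0.52, to 8, at -0.26. The cause of these negative correlations was not tested. Gene names rest on a numbering of the spots recovered from earlier results of these data. With it the 6 leaf marker probes, for chlorophyll-binding and photosystem proteins, had a median intensity of 16623, against 140.3 with the numbers as listed. Root aquaporin and nitrate transporter probes had a median of 339.8 over 12 probes. Those of seed storage proteins had 79.1 over 5, and the median of all probes was 158.7. For genes with 2 probes, the 1690 pairs correlated at r = 0.21 in intensity and 0.13 in mean ratio under the recovered numbering. With the numbers as listed these were 0.02 and 0.03. Probes of the same gene thus agreed only weakly. The leaf, root and seed lists had median ratios of 0.03, -0.23 and -0.04, and their part in the results below was not tested.

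1 gene of the family, OsC3H33, stood out as higher in irradiated seedlings, and 1 gene, OsC3H37, stood lower on both arrays by a smaller margin. The other members lay mostly close to 0. The brighter probe of OsC3H33 (LOC4337692) was 4.36-fold higher in irradiated seedlings on the Cy5 array and 6.06-fold higher on the Cy3 array. The probe of OsC3H37 (LOC4339379) was 2.59-fold and 2.34-fold lower. No role is given here for either gene.

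The recovered channel intensities show what lies behind the OsC3H33 ratio. On the Cy5 array the irradiated channel read 2068 and the control channel 229. On the Cy3 array the irradiated channel read 2119 and the control channel 1298. The irradiated channel was thus the brighter one on both arrays before any normalization, with a far smaller gap on the Cy3 array. Control RNA carried Cy5 there, and the deposited log10 ratios of Cy5 over Cy3 on that array had a median of 0.20, so the typical spot was brighter in Cy5. Centring each array on its median still left 3.01 on the Cy5 array against 1.38 on the Cy3 array. The cause of the unequal gap was not tested.

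After normalization this probe stood at 2.12 on the Cy5 array and 2.60 on the Cy3 array, a mean of 2.36 or 5.14-fold. It ranked 102 from the highest of 22574 probes by the mean. It was also the only member in the brightest decile of probes. The robust SD there was 0.25 for the mean of both arrays, called here the irradiation part. It was 0.21 for the dye part, by which the arrays oppose each other. Both parts also hold array error. The 8 spots around this probe on the array grid had ratios between -1.04 and 0.82 on the Cy5 array. On the Cy3 array they ran between -1.75 and 0.42, so the spots beside the probe were not raised with it. With median centring in place of the intensity trend its values were 3.01 and 1.38, still past 2-fold on both arrays.

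The other probe of OsC3H33 was dimmer by about an order of magnitude, at an intensity of 97.8 against 1068. Its irradiated channel read 228 against 131 in the control on the Cy5 array, and 73 against 42 on the Cy3 array. Both arrays therefore put irradiated above control at this probe too. Its normalized ratios of 0.72 and 0.46, with a mean of 0.59, did not reach 2-fold. Under median centring they were 0.63 and 1.47, with a mean of 1.05. Averaged over both probes, the gene stood at 1.42 and 1.53. The probes point the same way and disagree in size, with a gap of 1.77 between their means.

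OsC3H37 gave the one lower call. Its irradiated channel read 279 against 442 in the control on the Cy5 array, and 221 against 1448 on the Cy3 array. Control was the brighter channel on both arrays. The ratios of -1.37 and -1.22 had a mean of -1.30, and the probe lay in decile 9 by intensity, where the robust SD of the irradiation part was 0.34. With median centring the Cy5 array gave -0.83 and the Cy3 array -2.04, so the mean of -1.44 held while the call on both arrays was lost. The surrounding 8 spots had medians of -0.41 and -0.43 on the arrays. They ran from -1.91 to 0.70 on the Cy5 array and from -1.44 to 1.79 on the Cy3 array, so at least 1 spot beside it was lower still on each array.

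**Figure D1:**
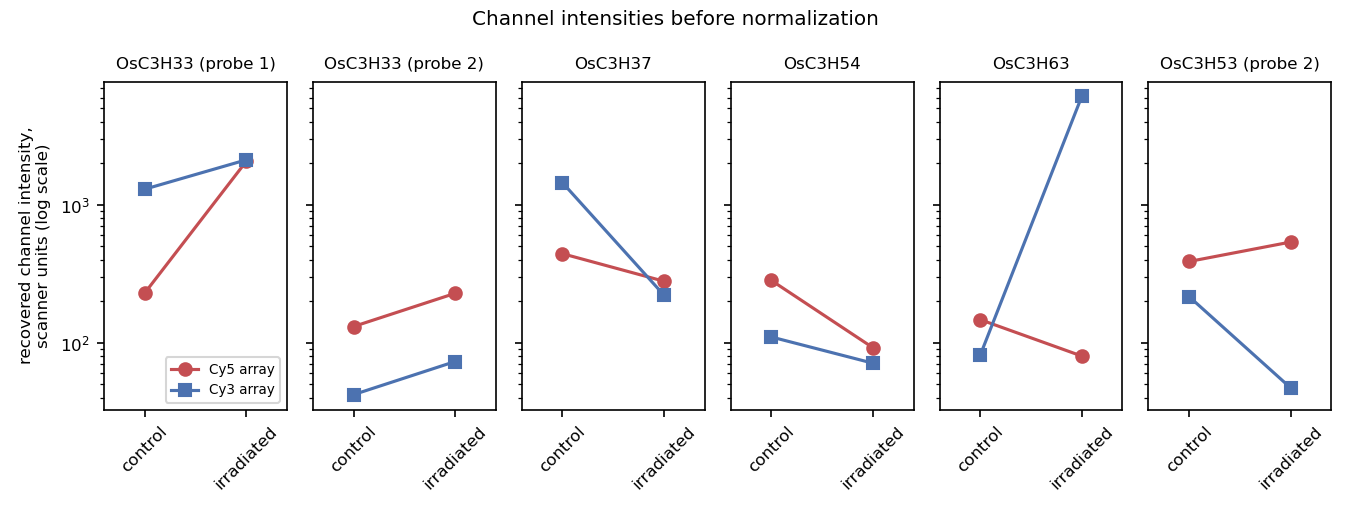
Recovered channel intensities in scanner units (log axis) of control and irradiated RNA for 6 CCCH probes, with circles for the Cy5 array and squares for the Cy3 array, before normalization. Both OsC3H33 probes go up from control to irradiated on both arrays, OsC3H37 and OsC3H54 go down on both, and OsC3H63 and the dimmer OsC3H53 probe go opposite ways.

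Across the family, 1 of 55 probes was at least 2-fold higher on both arrays, where 1.85% of all probes were. 1 of 55 was at least 2-fold lower on both, where 0.27% of all probes were. The higher count is near the background, and a single lower probe carries no weight for the family. At 1.5-fold 1 member was higher, against 3.93% of all probes, and 4 were lower, against 2.15%. The median of the 55 means was -0.02, and that of all probes was -0.01. The middle of the family ran from -0.33 at the lower quartile to 0.19 at the upper one, and for all probes from -0.30 to 0.29. The mean lay within 0.5 of 0 for 42 of the 55 probes, or 76.4%, and for 72.2% of all probes. By the mean of the arrays 2 members were at least 2-fold higher, against 3.37% of all probes, and 3 were lower, against 1.79%. 1 of these 2 higher means, that of OsC3H63, comes from a single spot described below. Counted by gene, 1 of the 46 genes was higher and 1 was lower, again OsC3H33 and OsC3H37. The share over all genes is not given here.

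**Figure D2:**
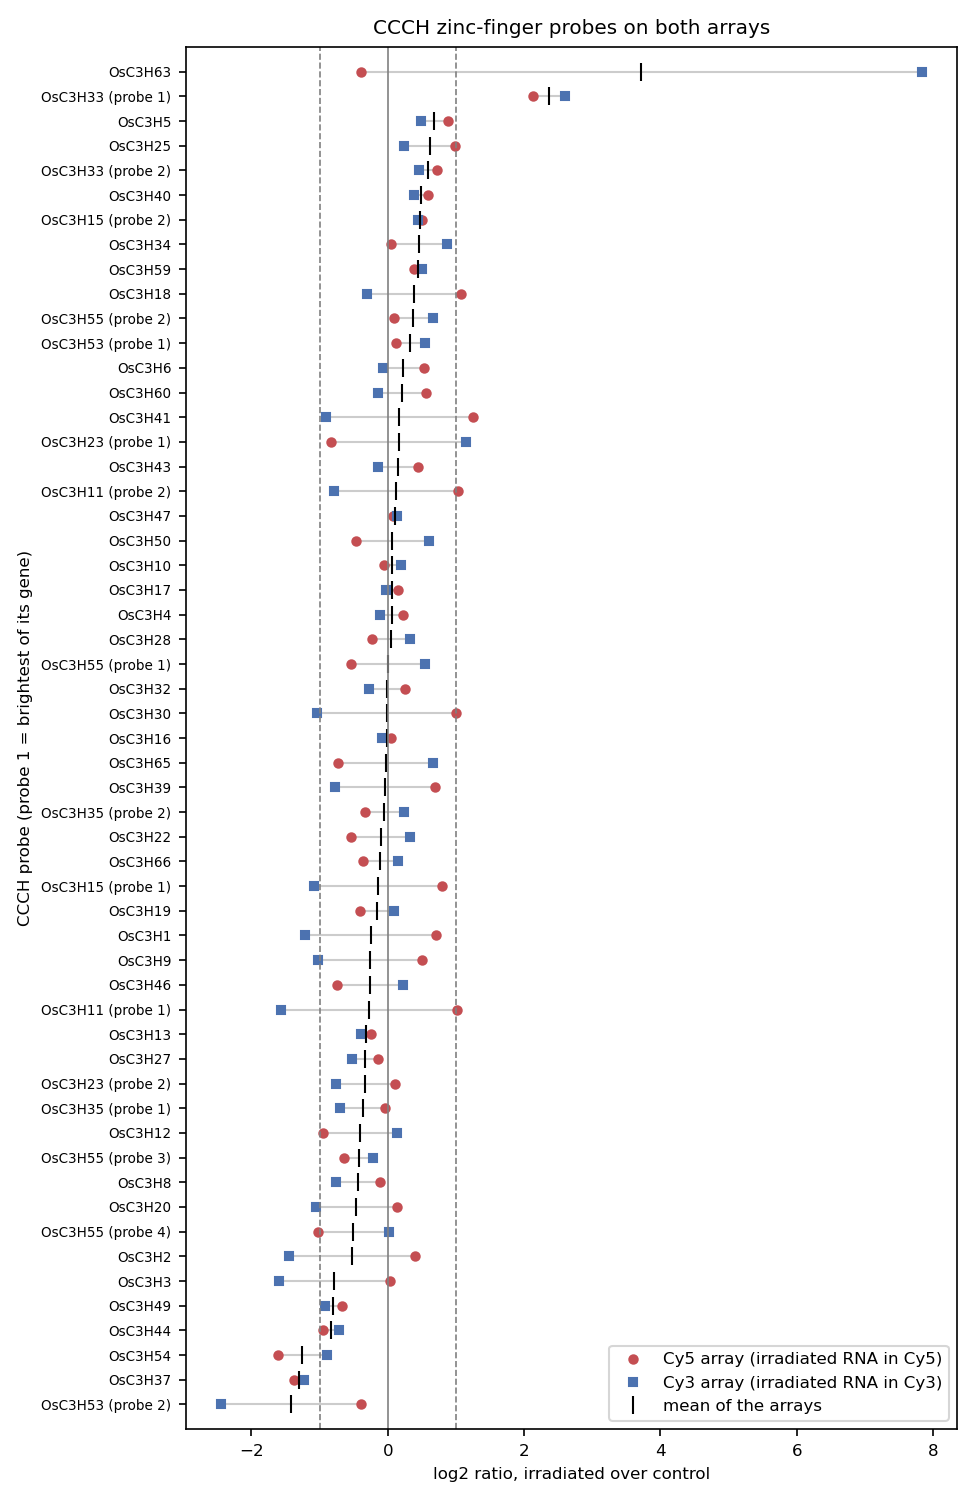
Log2 ratio of irradiated over control for each of the 55 CCCH probes, ordered by mean, with circles for the Cy5 array, squares for the Cy3 array, ticks for their mean and dashed lines at 2-fold. Only the brighter OsC3H33 probe lies beyond the right dashed line with both points and only OsC3H37 beyond the left one, while long grey bars mark probes on which the arrays disagree.

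The probes next to the lower call were OsC3H54, OsC3H44 and OsC3H49, each lower on both arrays at 1.5-fold but not at 2-fold. OsC3H54 read 92 for irradiated against 283 for control on the Cy5 array, and 71 against 110 on the Cy3 array. Its ratios were -1.61 and -0.89, with a mean of -1.25. Under median centring the Cy3 array gave 0.04, so the value on that array rests on the intensity trend. This probe lay in decile 4, where the dye part had a robust SD of 0.63.

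OsC3H44 stood at -0.95 and -0.72, but its deposited value on the Cy5 array is a ratio of 2 to 7, and the intensity used to normalize it needed a restored common factor of 9. OsC3H49 stood at -0.67 and -0.92, or at -0.77 and 0.00 under median centring. For all 3 probes the Cy5 array put irradiated lower under both normalizations, while the Cy3 array did so only under the intensity trend. On the higher side no member lay between 1.5-fold and 2-fold on both arrays. By the mean, the next below the brighter OsC3H33 probe, OsC3H63 apart, was OsC3H5 at 0.88 and 0.48, a mean of 0.68. It was followed by OsC3H25 at 0.99 and 0.25, whose mean of 0.62 turned to -0.08 under median centring.

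The arrays disagreed most on OsC3H63, which had the highest mean of the family at 3.72. On the Cy3 array its irradiated channel read 6113 and its control channel 81, a ratio of 7.84 and the highest of all 22574 probes on that array. On the Cy5 array the irradiated channel read 80 and the control 147, a ratio of -0.39. The mean is therefore the value of 1 spot and was not taken as a difference between the groups. The spot lies at the edge of the grid, and the 5 spots around it ran from -1.04 to 0.99 on the Cy3 array, so the high reading was not shared by its surroundings. Without this probe the family median was -0.02, the counts on both arrays stayed at 1 and 1, and the count higher by the mean was 1 in place of 2.

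The dimmer probe of OsC3H53 had the lowest mean, -1.42, from -0.40 on the Cy5 array and -2.45 on the Cy3 array. Its channels read 537 for irradiated and 388 for control on the Cy5 array, but 47 and 216 on the Cy3 array. They therefore ran opposite ways before normalization. The spot intensities of 456 and 101 put it on different parts of the intensity trends of the arrays. When the intensity averaged over both arrays was used for the trend, its mean was -0.58, and under median centring it was -0.61. The brighter probe of the gene stood at 0.12 and 0.55, a mean of 0.33, so the probes of OsC3H53 disagree in sign.

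The arrays shared little over the family as a whole. The ratios had the same sign on both arrays for 21 of 55 members, or 38.2%, and for 44.2% of all probes. Both parts hold array error, and the dye part was by construction larger than the irradiation part wherever the signs were opposite. These were 34 members, or 61.8%, and 55.8% of all probes. On the Cy5 array alone 6 members were at least 2-fold higher, against 10.2% of all probes, and 3 were lower, against 8.90%. On the Cy3 array alone 3 were higher, against 11.1%, and 10 were lower, against 10.7%. Apart from OsC3H33 and OsC3H37, none of these single-array calls was shared in direction by the other array at 2-fold. A probe of OsC3H11 and the probe of OsC3H30 passed 2-fold in opposite directions, at 1.02 and -1.57 for OsC3H11 and just past the threshold on both arrays for OsC3H30. These are 2 of 55 members, where 5.67% of all probes did so.

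**Figure D3:**
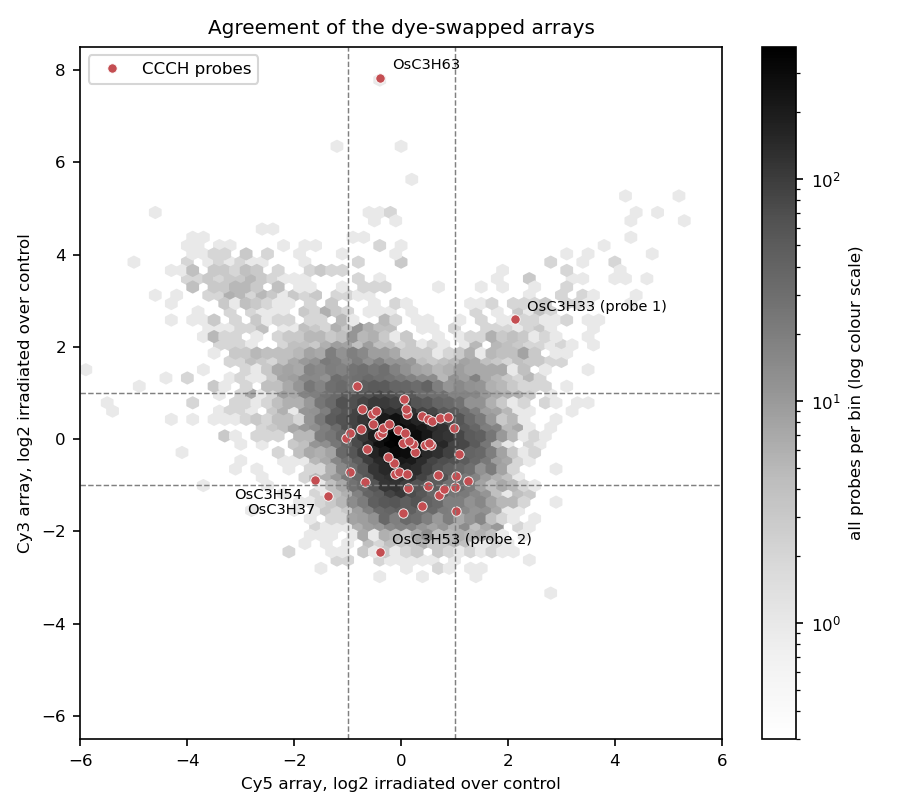
Log2 ratio of irradiated over control on the Cy3 array (vertical) against the Cy5 array (horizontal), with all probes inside the axis limits as grey bins shaded by their number on a log scale and the 55 CCCH probes as red points, and dashed lines at 2-fold. The brighter OsC3H33 probe lies far into the upper right corner, OsC3H37 just inside the lower left corner, and OsC3H63 at 7.84 on the Cy3 array and -0.39 on the first.

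Members differed in brightness, and its part in the calls was not tested. Recovered intensities of members ran from 51.6 for OsC3H34 to 1068 for OsC3H33, with a median of 151.1, close to that of all probes. The dimmer 5 deciles held 29 of the 55 members and the brightest 2 deciles held 9. In those brightest deciles OsC3H33 was the 1 member past 2-fold higher, where 218 of 4515 probes were, and OsC3H37 the 1 past 2-fold lower, where 25 were. The other 7 had means between -0.44 for OsC3H8 and 0.23 for OsC3H6. None of the 29 members in the dimmer deciles passed 2-fold on both arrays, where 57 of 11287 such probes were higher and 16 lower. The robust SD of the dye part was 0.90 in the dimmest decile and 0.21 in the brightest. Over the 29 dimmer members the arrays correlated at r = -0.36 and over the 9 brightest at r = 0.89. Without OsC3H33 and OsC3H37 the latter was -0.13 over 7 probes, so it rests on those genes. These are descriptions across probes of the same arrays.

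**Figure D4:**
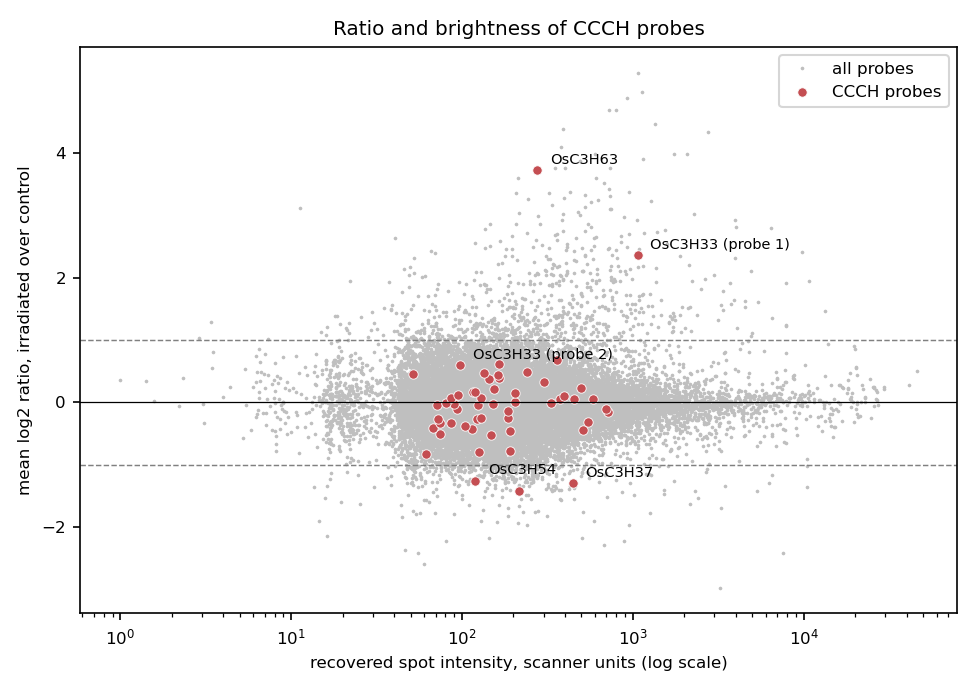
Mean log2 ratio of irradiated over control against recovered spot intensity in scanner units (log axis), with all probes in grey, the 55 CCCH probes in red and dashed lines at 2-fold. Most CCCH probes lie within 0.5 of 0 at intensities near the median of all probes, and the brighter OsC3H33 probe is the brightest member.

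The members described next, chosen for roles known under the names used here, were each within 2-fold on at least 1 array. OsDOS (OsC3H2), a nuclear protein that delays leaf senescence and acts in jasmonate pathways, stood at 0.40 on the Cy5 array and -1.45 on the Cy3 array, a mean of -0.52. Its channels read 707 for control and 127 for irradiated on the Cy3 array, but 39 and 34 as reduced terms on the first. Its mean was -1.09 under median centring and -1.08 with averaged intensities, where both arrays were lower. The size for OsDOS therefore depends on the normalization, as does its sign on the Cy5 array.

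LIC (OsC3H46), which acts in brassinosteroid signalling and sets leaf and tiller angle, stood at -0.74 and 0.22, with opposite signs on the arrays. Ehd4 (OsC3H20), which promotes flowering, stood at 0.13 and -1.06. OsC3H12, which contributes to resistance against bacterial blight, stood at -0.95 and 0.14. For all 3 the arrays disagreed in sign, so the means of -0.26, -0.46 and -0.41 are by construction smaller in size than the gaps between the arrays. The mean of Ehd4 turned to 0.28 under median centring and to 0.31 with averaged intensities.

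Among members linked to drought tolerance, OsC3H10 stood at -0.05 and 0.19 and OsC3H47 at 0.07 and 0.14. The latter was among the members with the closest arrays, with intensities of 366.5 and 428.4. Of the members with a role in RNA processing or protein turnover, U2AF35A (OsC3H60), a subunit of the splicing factor that recognizes the end of introns, stood at 0.56 and -0.14. MKRN (OsC3H41), of the makorin type of ubiquitin ligases, stood at 1.25 and -0.90, with opposite signs on the arrays.

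7 genes had more than 1 probe, 16 probes in all. The 4 probes of OsC3H55 had means of -0.50, -0.42, 0.00 and 0.38, the values at 0.00 and 0.38 coming from the brighter probes. None of them passed 2-fold on both arrays. For OsC3H11, OsC3H15, OsC3H23 and OsC3H35 the gap between the means of both probes ran from 0.32 to 0.62. Gaps of 1.75 for OsC3H53 and 1.77 for OsC3H33 were the widest. OsC3H22 and OsC3H23 are direct neighbours among the protein-coding genes of the RefSeq assembly ASM3414082v1, the only such pair in the family. OsC3H22 stood at -0.53 and 0.33, and the brighter probe of OsC3H23 at -0.83 and 1.15, with means of -0.10 and 0.16. The dimmer probe of OsC3H23 stood the other way round, at 0.10 and -0.77, so the probes of OsC3H23 disagree.

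The intensity trend moved members in both directions. In place of it, median centring turned the sign of 17 of the 55 means, and 11 moved by more than 0.5. Averaging the intensity over both arrays before the trend was fitted turned 16 and moved 9 by more than 0.5. Among these OsC3H3 went from -0.78 to -0.01. OsC3H33 and OsC3H37 were the called members under every form of the intensity trend that was run, with means of 2.28 to 2.38 and of -1.37 to -1.30.

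**Figure D5:**
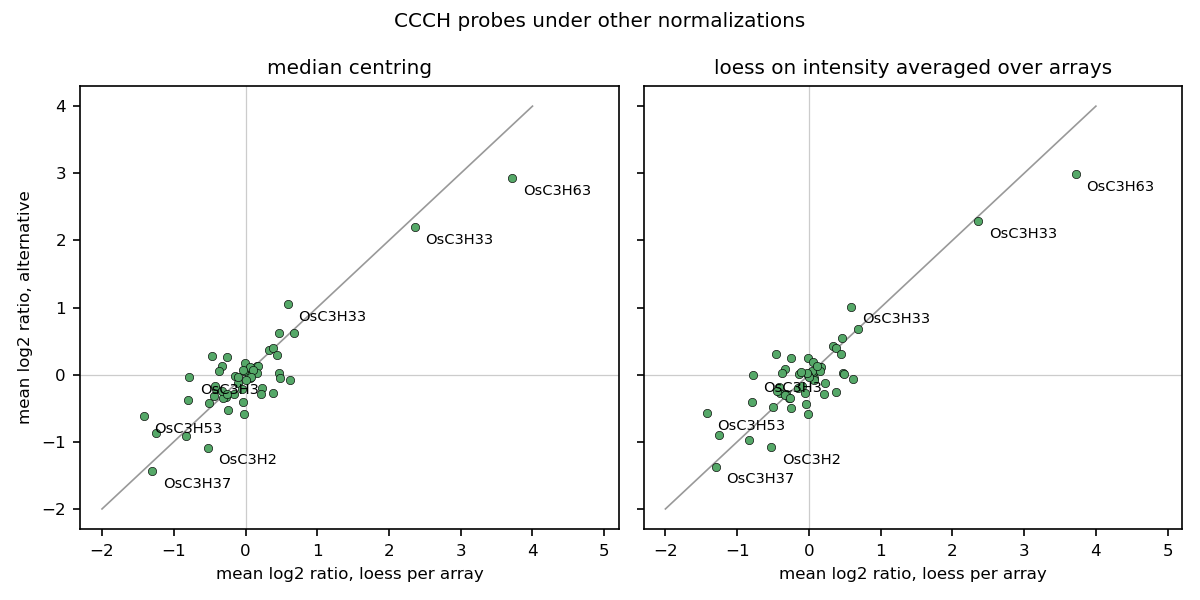
Mean log2 ratio of irradiated over control of the 55 CCCH probes under median centring (left) and under a trend on intensity averaged over both arrays (right), against the trend on each array's own intensity, with the line of equal values. The brighter OsC3H33 probe and OsC3H37 stay near the line, while OsC3H2, OsC3H3 and the dimmer OsC3H53 probe leave it.

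Partners of CCCH proteins in messenger RNA decay were represented by 2 named probes. They were RRP46, a subunit of the RNA exosome, at -0.19 and 0.55, and the poly(A)-binding protein PAB1 at -0.02 and 0.12. 0 of the 2 passed 2-fold, and their median was 0.12. Another zinc-finger family, the stress-associated SAP proteins with A20 and AN1 fingers, had 3 of 14 probes past 2-fold in the higher direction on both arrays, against 1.85% of all probes, and 0 in the lower. Of its probes 13 lay in the brighter 5 deciles, where 361 of 11287 were that much higher. Its probes were brighter than those of the CCCH family, with a median intensity of 595.9, and the difference between the families was not tested.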

How the data were processed

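The deposited values are log10 ratios of both channels of an array, 22575 rows with 1 value missing. The unit was read from the values. The authors scanned with GenePix and normalized with GeneSpring, per the series' design text, but the deposited columns had medians of 0.051 and 0.20 and followed intensity. Background handling is not given in the sources used here. Each value was resolved into the simplest fraction within its 9 printed decimals, with median terms of 143 over 163 where irradiated RNA carried Cy5 and 205 over 166 where it carried Cy3. Values shifted at random by a small amount gave medians between 21802 and 32489. The terms were read as channel intensities. The most likely common factor, up to 59, was restored with the help of the other array, for 6 member probes on the Cy5 array and 1 on the Cy3 array. Each array was normalized by loess (statsmodels 0.14.6, span 0.3, 3 robustness iterations), and the sign of the array with irradiated RNA in Cy3 was turned.

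The annotation lists 17860 probes, 17839 with 1 gene and 21 with several, and leaves 4715 unlisted. Gene numbers of all 17839 were found in the gene table. The steps were also run on simulated data, in which both arrays shared the same spot intensities and dye trend. Changes were not placed in the dimmer simulated spots. That run therefore does not show how the steps perform on dim probes or on arrays that differ in intensity. A probe was called when past 2-fold on both arrays. All members are given, in full where called, among the highest or lowest, or with several probes. The plan also named gene products, which the tables used here do not hold, so lists were made from symbols and synonyms. The members and lists were chosen with earlier results of these data known. Alternatives were other normalizations, thresholds, single arrays, readings and numberings. The number of arrays limits the precision.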

Additional observations from a re-analysis of the deposited data

How the results depend on the processing

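OsC3H33 was the called higher probe, and the count stayed at 1, under median centring with or without scaling, loess on reduced terms, span 0.6, averaged intensity (chosen after the data were seen), the brighter deciles, genes in place of probes, 1.5-fold and 3-fold. The lower count of 1, OsC3H37, became 0 with median centring, 0 with scaling as well, 0 at 3-fold and 4 at 1.5-fold. Of all 22574 probes, 257 were higher and 27 lower with median centring, against 418 and 61 in the main run. By the mean of the arrays 2 were higher and 3 lower, against 3.37% and 1.79% of all probes. The Cy5 array alone gave 6 higher and 3 lower, and the Cy3 array alone 3 and 10, with the shares of all probes given above. With no array turned 2 were higher and 0 lower, where 5.67% of all probes passed 2-fold on both arrays in either direction. The family median was then 0.091 and the mRNA decay median -0.22. With probe numbers as listed 4 were higher and 0 lower, against 1 and 1 with the recovered numbering. They come from other spots, whose total is not given here. Of all probes 1.85% were higher and 0.27% lower. The decay median with the numbers as listed was -0.28. Under Cy3 over Cy5 OsC3H33 stood at -2.36 and OsC3H37 at 1.30. The cause of these moves was not tested beyond what each setting changes by construction. The family median otherwise moved by less than 0.11, the SD of the medians of the 2 arrays. For each array alone that outcome was largely set by construction. Membership by product name was not run, since the tables hold no product names. No paired analysis was possible because the arrays are a dye swap of 1 pair of extracts.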
